A study of Bos taurus with 15 samples.

Results

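The genes described here code for proteins of the spliceosome core and for their close relatives. They were taken from the table of filtered read counts by symbol. A gene was included when its bovine symbol began with SNRP, LSM, SF3A, SF3B or PRPF, or was U2AF1 or U2AF2, and SNRPN was left out. The rule found 48 of the 10832 genes of the filtered table. Of these, 47 are Sm, LSm, SF3, PRPF or U2AF proteins. The remaining gene, LSMEM1, codes for a membrane protein that only shares the first letters of its symbol with the LSm genes, and its values are given apart.

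The study asked whether oviductal extracellular vesicles (oEVs), the membrane particles that carry RNA and protein in oviductal fluid, alter the transcriptome of bovine embryos. Bovine embryos produced in vitro were cultured without oEVs (Co), with fresh oEVs (FeEV) or with frozen oEVs (FoEV), and the libraries hold total RNA from pools of 8 to 14 blastocysts. The labels place the blastocysts at day 7, whereas the study's text gives a later day of culture. The oEVs came from oviducts of postovulatory cows collected at a slaughterhouse, and no strain or genotype was given for embryos or cows. Fresh and frozen oEVs were portions of material from the same oviducts. Each treatment had 5 libraries, each from 1 ng of RNA of 1 pool that had been chosen for its RNA quality. The sources do not tell whether the pools of a treatment came from separate cultures, so the p-values measure the spread between pools only.

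The spliceosome removes introns from messenger RNA precursors. Its building blocks are small nuclear ribonucleoproteins (snRNPs), each made of a small nuclear RNA (snRNA) and proteins. The Sm proteins form a ring around the U1, U2, U4 and U5 snRNAs, and the related LSm proteins form a ring on U6. A sister LSm ring in the cytoplasm takes part in mRNA decay. U2AF recognizes the 3' end of an intron, SF3A and SF3B belong to the U2 snRNP that binds the branch point, and several PRPF proteins build the tri-snRNP of U4, U6 and U5 that brings the catalytic centre. Early embryos depend on splicing once transcription from their own genome begins.

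Values are CPM, each gene's share of the counts of a library on a common base, scaled by TMM factors that remove differences in library size and composition. Transcript lengths were not used here, so levels are compared between treatments of a gene and never between genes. Totals per library ran from 2571558 to 2977004 counts in Co, from 2136713 to 3808602 in FeEV and from 3392613 to 4058887 in FoEV, and all FoEV libraries were deeper than all Co libraries. Markers of the trophectoderm (the outer layer of the embryo) were present, and their 7 genes summed to 6375–8628 CPM in Co. Most of this sum came from the keratins KRT8 and KRT18, with Co medians of 4428 and 2645 CPM, beside 214 CPM for GATA3 and 32.5 CPM for CDX2. The 5 cumulus cell markers summed to at most 5.62 CPM in any library, with PTX3 at 0 in all Co and FoEV libraries, and the 4 oviduct epithelium markers to at most 13.9 CPM, with MSLN at 0 in Co.

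In embryos with frozen oEVs, 35 of the 48 genes had a higher fitted mean than in Co and 13 had a lower one. The share of higher genes was 72.9%, beside 52.3% of all 10832 genes. The median log2 fold change of the 48 genes was 0.08, beside 0.01 over all genes. None of the 48 genes reached an adjusted p under 0.05 (edgeR quasi-likelihood test, Benjamini-Hochberg over all genes), a level that 0.00923% of all genes reached. At an unadjusted p under 0.05 there were 14 genes, or 29.2% of the 48, beside 15.1% of all genes. They comprised 11 higher genes (22.9%, beside 8.18% of all genes) and 3 lower genes (6.25%, beside 6.88%). At an unadjusted p under 0.05, the robust likelihood ratio test gave 16 genes (18.1% of all genes) and DESeq2 15 (14.7% of all genes). Neither gave any of the 48 genes at an adjusted p under 0.05, a level that 2.87% of all genes reached in the robust test and 1.33% in DESeq2. Without Co replicate 4 the count was 9 in place of 14 (beside 11.5% of all genes), and without FoEV replicate 3 it was also 9 (beside 14.7%).

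The genes with a higher mean included most of the rings of the snRNPs, and those with a lower mean included several SF3B and PRPF genes. Of the 7 Sm genes, 7 had a higher mean in FoEV, although SNRPB did so by only 0.01 on the log2 scale, and 4 had an unadjusted p under 0.05. All 8 genes of the LSm rings and both U2AF genes had a higher mean, with 1 and 2 genes at an unadjusted p under 0.05. At that level were 57.1% of the Sm genes and 12.5% of the LSm ring genes, beside 15.1% of all genes in either direction and 8.18% higher. A higher mean was found for 3 of 6 SF3B genes and for 4 of 8 PRPF genes of the tri-snRNP. The plot of fold changes gives 47 of the 48 genes in the 3 comparisons.

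**Figure D1:**
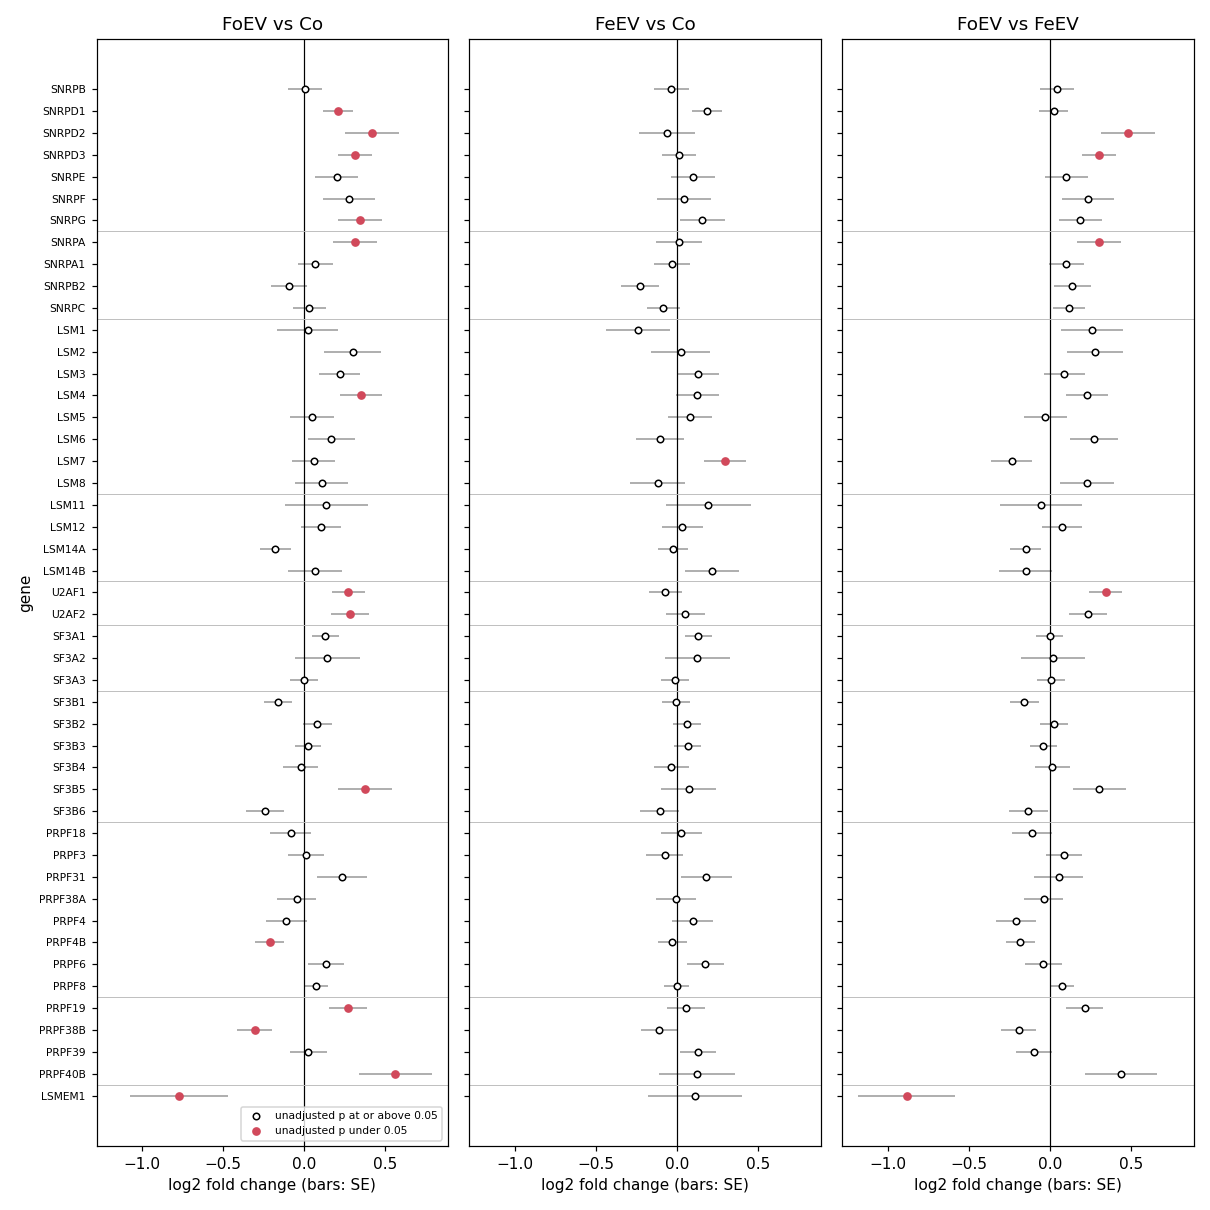
Log2 fold changes of 47 of the 48 genes (rows, grouped by role) in the 3 comparisons (panels), on the log2 scale; points are fitted values and bars the standard error. Filled points mark an unadjusted p under 0.05, of which there are 14 in FoEV vs Co, 1 in FeEV vs Co and 5 in FoEV vs FeEV.

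Among the Sm genes, SNRPD3 (NCBI gene 617823) had the smallest p in FoEV vs Co. Its level was 83.5, 78.6, 75.8, 73.0 and 75.9 CPM in the Co libraries, 78.4, 69.4, 74.4, 87.4 and 81.0 CPM in FeEV, and 108, 80.5, 108, 104 and 80.7 CPM in FoEV. FoEV replicates 1, 3 and 4 were above every other library, whereas replicates 2 and 5 lay inside the Co range. The means were 77.4 ± 3.95 CPM in Co and 96.3 ± 14.4 CPM in FoEV (SD, n = 5). On the log2 scale, the fitted fold change was 0.31 with a standard error of 0.10 (edgeR adjusted p = 0.177), which is 1.24-fold.

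SNRPD2 (NCBI gene 514932), which pairs with SNRPD1 in the ring, had the largest fold change of the Sm genes. Its level was 27.3, 24.3, 23.2, 18.9 and 20.1 CPM in Co, 19.4, 25.3, 20.3, 21.0 and 23.5 CPM in FeEV, and 23.8, 22.5, 32.8, 43.7 and 31.1 CPM in FoEV. FoEV replicates 3, 4 and 5 exceeded all Co and FeEV libraries. Relative to Co, FoEV differed by a log2 fold change of 0.42 with a standard error of 0.17 (edgeR adjusted p = 0.235), and 0.27 without FoEV replicate 4.

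SNRPD1 (NCBI gene 508788) was close to 65.8 ± 3.65 CPM in Co, with 70.4, 69.2, 63.9, 63.4 and 62.4 CPM in its libraries. In FeEV it stood at 72.7, 85.4, 72.3, 69.7 and 74.3 CPM, and in FoEV at 77.8, 75.2, 78.5, 68.1 and 80.7 CPM. FoEV replicate 4 alone fell within the Co range, and in FeEV likewise replicate 4 alone. FoEV vs Co gave a log2 fold change of 0.21 ± 0.09 (SE) (edgeR adjusted p = 0.275) and FeEV vs Co one of 0.18 ± 0.09 (edgeR adjusted p = 1).

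SNRPG (NCBI gene 522621), one of the smallest Sm proteins, varied more between pools. Its level was 46.3, 67.5, 64.2, 42.1 and 69.4 CPM in Co, 66.8, 67.6, 66.9, 61.0 and 60.6 CPM in FeEV, and 84.1, 74.9, 83.5, 54.8 and 69.8 CPM in FoEV. Co replicates 1 and 4 were the lowest of the 15 libraries, and FoEV replicates 1, 2, 3 and 5 were the highest. Its log2 fold change was 0.34 with a standard error of 0.14 (edgeR adjusted p = 0.233).

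The remaining Sm genes had no unadjusted p under 0.05 in any comparison of the fit over all libraries. SNRPE and SNRPF did have one in FoEV vs Co when certain single libraries were left out. SNRPE averaged 59.5 ± 6.09 CPM in Co and 68.3 ± 15.2 CPM in FoEV (SD, n = 5), and its FoEV libraries spanned 44.4 to 84.6 CPM, which includes the lowest and the highest level of all 15 libraries. Its log2 fold change was 0.20, 0.10 without FoEV replicate 3 and up to 0.32 without another single library. SNRPF averaged 22.6 ± 6.33 CPM in Co and 27.3 ± 4.38 CPM in FoEV. Co replicate 1 held 33.5 CPM of SNRPF, more than every other library, and the log2 fold change went from 0.28 to 0.46 without it. SNRPB was nearly level, with 75.6 ± 6.07 CPM in Co, 73.7 ± 6.74 CPM in FeEV and 76.0 ± 10.2 CPM in FoEV. Its fold change of 0.01 took the opposite sign under several settings, among them DESeq2 size factors. SNRPB and SNRPN code for almost identical proteins, and how reads shared by similar genes or retrocopies were counted is not given in the sources used here, so the levels of SNRPB and of other Sm and LSm genes with copies are uncertain to that degree.

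**Figure D2:**
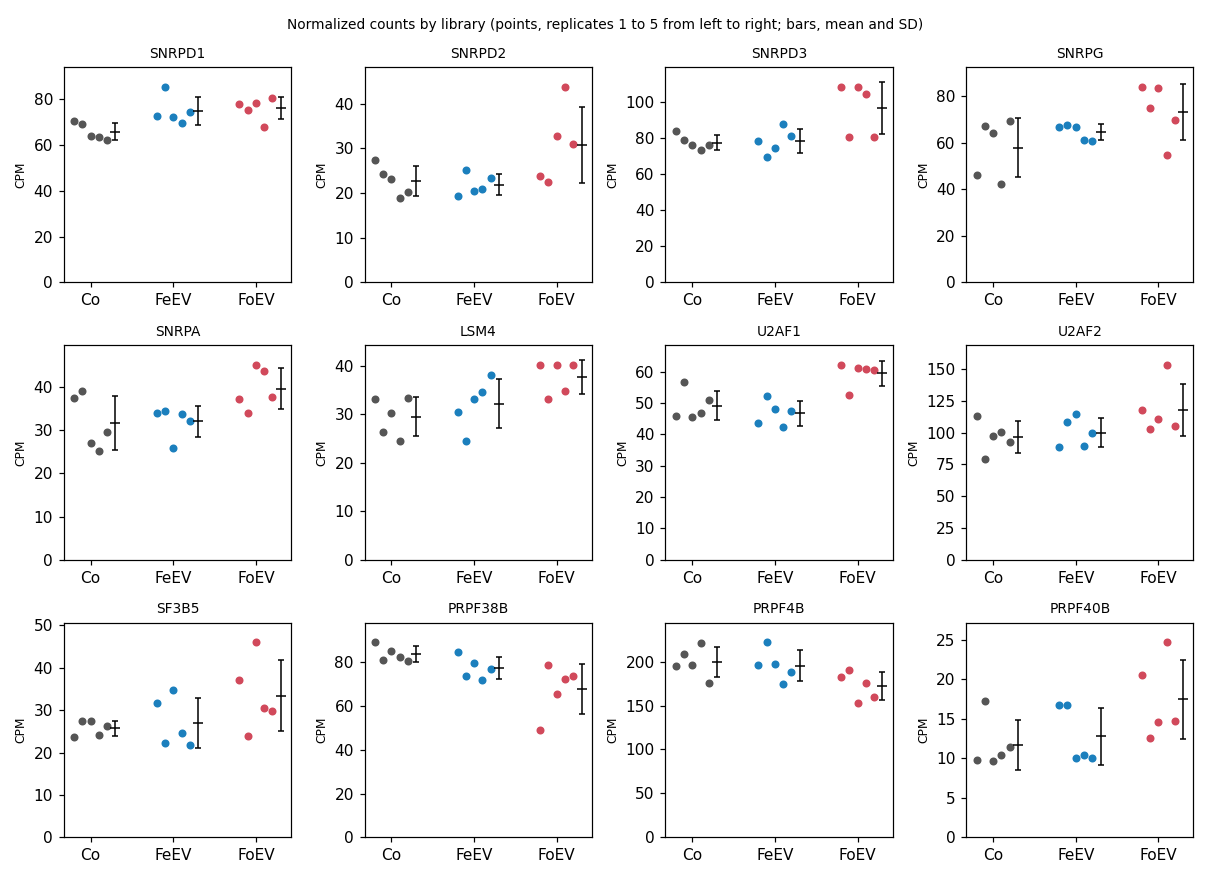
Level in CPM (y axis, from 0) of 12 genes with an unadjusted p under 0.05 in FoEV vs Co, in Co, FeEV and FoEV libraries; points are replicates 1 to 5 from left to right and bars the mean and SD. For PRPF38B all FoEV libraries lie below the Co libraries, and for the other 11 genes the libraries of Co and FoEV overlap.

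Averaged over the 7 genes of the ring on the log2 scale and set against the Co mean, the Sm level was 0.33, 0.07, 0.44, 0.15 and 0.23 in FoEV replicates 1 to 5. It ran from −0.17 to 0.13 in the Co libraries and from 0.01 to 0.12 in the FeEV libraries. Thus 4 of 5 FoEV libraries were above all Co libraries, and FoEV replicate 2 was not. The mean was 0.24 ± 0.15 in FoEV and 0.07 ± 0.04 in FeEV, with an SD of 0.11 in Co (n = 5). The same average over all 10832 genes lay between −0.02 and 0.04 in every library. Co replicate 4 held the lowest level within Co for 5 of the 7 Sm genes and FoEV replicate 3 the highest within FoEV for 3 of them.

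Proteins that belong to either the U1 or the U2 snRNP were less uniform. SNRPA (NCBI gene 509802), an RNA-binding protein of the U1 snRNP, was at 37.6, 39.1, 27.1, 25.3 and 29.5 CPM in Co, at 34.0, 34.5, 26.0, 33.7 and 32.1 CPM in FeEV, and at 37.3, 34.1, 45.2, 43.7 and 37.6 CPM in FoEV. The Co libraries split into a higher pair, replicates 1 and 2, that overlapped FoEV, and 3 lower libraries that did not. The log2 fold change was 0.31 ± 0.14 (SE) in FoEV vs Co (edgeR adjusted p = 0.278). SNRPB2, a partner of the U2 snRNA, was lower by 0.09 in FoEV and by 0.23 in FeEV than in Co on the log2 scale, with 58.9 ± 8.11 CPM in Co, 50.3 ± 4.59 CPM in FeEV and 55.2 ± 6.47 CPM in FoEV (SD, n = 5). Without Co replicate 3, its highest Co library at 71.3 CPM, these differences became −0.01 and −0.15. The other 2 genes of the group, SNRPC of U1 and SNRPA1 of U2, differed from Co by 0.07 or less in FoEV.

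**Figure D3:**
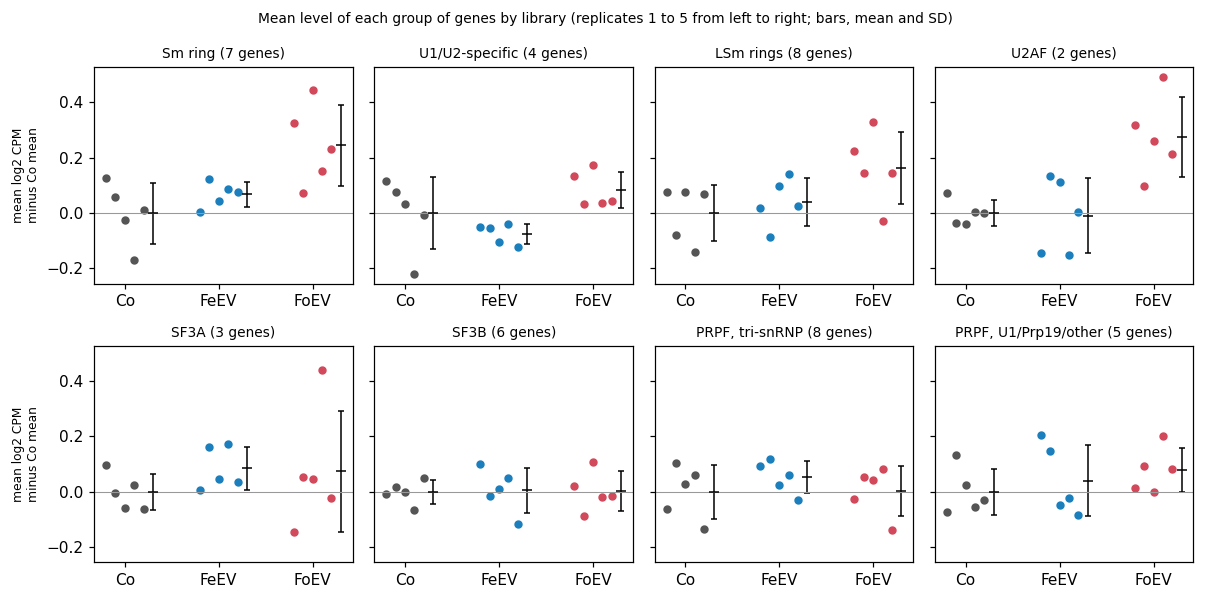
Mean log2 CPM of each group of genes minus its mean over Co (y axis, log2 scale) in Co, FeEV and FoEV, for 8 groups of genes; points are replicates 1 to 5 from left to right and bars the mean and SD. The Sm ring and U2AF lie at 0.24 and 0.28 on average in FoEV, while SF3B and the tri-snRNP PRPF genes lie at 0.00.

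In the LSm rings, LSM4 (NCBI gene 613634) was the gene with an unadjusted p under 0.05 in FoEV vs Co. Its level was 33.2, 26.3, 30.3, 24.5 and 33.2 CPM in Co, 30.4, 24.5, 33.2, 34.6 and 38.0 CPM in FeEV, and 40.1, 33.0, 40.2, 34.7 and 40.1 CPM in FoEV. FoEV replicate 2 alone was not above all Co libraries. FoEV exceeded Co by 0.35 on the log2 scale with a standard error of 0.13 (edgeR adjusted p = 0.215), or 1.28-fold.

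The other 7 LSm ring genes had log2 fold changes from 0.02 to 0.30 in FoEV vs Co and unadjusted p-values above 0.05. LSM2 went from 13.3 ± 3.15 CPM in Co to 16.4 ± 1.46 CPM in FoEV (SD, n = 5), and LSM3 from 59.0 ± 12.2 to 68.7 ± 6.87 CPM, with Co replicate 4 apart at 37.7 CPM. LSM8, which marks the nuclear ring of U6, had a log2 fold change of 0.11, and LSM1, which takes its place in the cytoplasmic ring, one of 0.02. LSM5 and LSM7 differed by 0.05 and 0.06, and LSM7 was at −0.02 without FoEV replicate 3. Over the 8 genes, the mean on the log2 scale relative to Co was 0.22, 0.15, 0.33, −0.03 and 0.14 in FoEV replicates 1 to 5, and from −0.14 to 0.08 in Co. FoEV replicate 3 was the highest FoEV library for 6 of the 8 genes, and Co replicate 4 the lowest Co library for 4 of them.

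The LSm proteins outside these rings showed no common direction in FoEV vs Co. LSM14A, a protein of the cytoplasmic bodies in which translation is repressed, was at 132, 124, 122, 137 and 149 CPM in Co and at 101, 123, 116, 130.2 and 117 CPM in FoEV. Its log2 fold change of −0.18 ± 0.09 (SE) was not past an unadjusted p of 0.05 (edgeR adjusted p = 0.377), and the libraries overlapped. LSM11, LSM12 and LSM14B differed by 0.14, 0.11 and 0.07. LSM11 belongs to the U7 snRNP that processes histone transcripts and was counted 10 to 33 times per library, so its levels of 4.01 to 10.8 CPM carry a wide counting error. Its partner LSM10 was below the filter with 3 to 17 counts.

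Both subunits of U2AF had a higher mean in FoEV. U2AF1 (NCBI gene 512680), which contacts the AG at the end of the intron, was at 45.9, 56.7, 45.5, 47.0 and 50.9 CPM in Co, at 43.5, 52.4, 48.2, 42.4 and 47.5 CPM in FeEV, and at 62.3, 52.5, 61.2, 60.8 and 60.5 CPM in FoEV. Thus 4 of 5 FoEV libraries lay from 60.5 to 62.3 CPM and were above all others, and FoEV replicate 2 was only just above the highest FeEV library. In FoEV vs Co, the log2 fold change was 0.27 ± 0.10 (SE) (edgeR adjusted p = 0.212) and 0.34 ± 0.10 in FoEV vs FeEV (edgeR adjusted p = 0.45). U2AF1 was the only one of the 48 genes whose FoEV libraries were all above the FeEV libraries, which 0.757% of all genes showed in that direction.

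U2AF2 (NCBI gene 507895), which binds the pyrimidine tract before the AG, was at 113, 78.9, 97.7, 101 and 92.7 CPM in Co, at 88.5, 108, 114, 89.7 and 99.4 CPM in FeEV, and at 118, 103, 111, 154 and 105 CPM in FoEV. FoEV replicates 1 and 4 exceeded the highest Co library, and the rest overlapped. The log2 fold change was 0.28 ± 0.12 (SE) in FoEV vs Co (edgeR adjusted p = 0.257) and 0.17 without FoEV replicate 4.

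The 3 SF3A genes, which join SF3B to the U2 snRNP, had no unadjusted p under 0.05. SF3A3 was the steadiest of all 48 genes, at 80.4 ± 3.21 CPM in Co, 80.0 ± 4.70 CPM in FeEV and 80.4 ± 5.54 CPM in FoEV (SD, n = 5), with an SD over 15 libraries of 0.08 on the log2 scale. SF3A1 was at 137 ± 6.43 CPM in Co, 149.8 ± 11.7 CPM in FeEV and 149.7 ± 12.7 CPM in FoEV. SF3A2 had a log2 fold change of 0.14 in FoEV vs Co that rested on FoEV replicate 4 with 51.1 CPM, beside 19.0 to 30.0 CPM in the other FoEV libraries, and without that library it was −0.10.

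SF3B, the complex that holds the branch point, had members on both sides. SF3B5 (NCBI gene 574400), a small subunit, was at 23.7, 27.3, 27.4, 24.1 and 26.3 CPM in Co, at 31.6, 22.3, 34.7, 24.6 and 21.8 CPM in FeEV, and at 37.0, 24.0, 46.0, 30.4 and 29.7 CPM in FoEV. The Co libraries were tightly spaced, and 4 of 5 FoEV libraries were above them. Fitted over all libraries, the log2 fold change was 0.37 ± 0.17 (SE) (edgeR adjusted p = 0.29) and 0.23 without FoEV replicate 3.

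SF3B1, the large scaffold subunit, averaged 439.5 ± 31.9 CPM in Co and 393 ± 41.7 CPM in FoEV, with a log2 fold change of −0.16 (edgeR adjusted p = 0.384). SF3B6, which sits at the branch point, averaged 42.5 ± 5.58 CPM in Co and 35.9 ± 3.29 CPM in FoEV, with a log2 fold change of −0.24 (edgeR adjusted p = 0.343). Neither reached an unadjusted p of 0.05. SF3B2, SF3B3 and SF3B4 differed between FoEV and Co by 0.08, 0.02 and −0.02. SF3B3 was the second steadiest gene, with an SD of 0.09 over the 15 libraries. The median of this SD was 0.19 for the 48 genes and 0.26 for all genes.

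Among the PRPF genes, PRPF38B (NCBI gene 100299693), a relative of the tri-snRNP protein PRPF38A, was the only one of the 48 whose FoEV libraries did not overlap Co. It was at 89.0, 80.6, 84.8, 82.3 and 80.4 CPM in Co, at 84.6, 73.5, 79.4, 71.5 and 76.5 CPM in FeEV, and at 48.9, 78.7, 65.3, 72.1 and 73.3 CPM in FoEV. The FoEV libraries were all lower, replicate 1 most of all, and replicate 2 was close below the lowest Co library. This gave a log2 fold change of −0.30 ± 0.11 (SE) (edgeR adjusted p = 0.199). Lower libraries without overlap were found for 1.35% of all genes in this comparison, and higher libraries without overlap for 1.26% of all genes and for 0 of the 48.

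PRPF40B (NCBI gene 513782), a relative of a yeast U1 snRNP protein, had the largest positive fold change of the 48 genes and few counts, 23 to 89 per library. It was at 9.84, 17.2, 9.67, 10.4 and 11.5 CPM in Co, at 16.7, 16.7, 10.0, 10.5 and 10.1 CPM in FeEV, and at 20.6, 12.6, 14.6, 24.7 and 14.7 CPM in FoEV. FoEV replicates 1 and 4 were above all other libraries, and Co replicate 2 was within the FoEV range. The log2 fold change was 0.56 ± 0.23 (SE) (edgeR adjusted p = 0.238), and 0.32 when the counts of all libraries were thinned to the smallest total.

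PRPF4B and PRPF19 are also given, although they were chosen after their values were seen. PRPF4B, a kinase of the tri-snRNP, was at 195, 208, 196, 221 and 176 CPM in Co and at 182, 190.5, 153, 175 and 159.7 CPM in FoEV, with a log2 fold change of −0.21 ± 0.09 (SE) (edgeR adjusted p = 0.263). PRPF19, the ubiquitin ligase that names the Prp19 complex, was at 83.5, 70.2, 114, 92.7 and 94.8 CPM in Co and at 107, 114, 102, 132 and 94.0 CPM in FoEV, with a log2 fold change of 0.27 ± 0.12 (edgeR adjusted p = 0.271). In both genes the libraries of Co and FoEV overlapped.

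The other PRPF genes described here had no unadjusted p under 0.05 in FoEV vs Co. PRPF8, the protein that cradles the catalytic centre, was at 782 ± 43.4 CPM in Co, 781 ± 28.1 CPM in FeEV and 822 ± 67.0 CPM in FoEV (SD, n = 5). PRPF31, which clasps the U4 snRNA, had a log2 fold change of 0.23, which was 0.14 without FoEV replicate 4. It was 0.38 without Co replicate 1 and 0.47 with the library numbers of the descriptions as a block, and in both fits its unadjusted p was under 0.05. PRPF6, the bridge between U5 and U4/U6, had one of 0.13. PRPF3, PRPF4, PRPF18, PRPF38A and PRPF39 lay between −0.11 and 0.03.

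LSMEM1, which is no LSm protein, had the largest spread of the 48 genes, with an SD of 0.66 over the 15 libraries on the log2 scale. It was at 8.39, 8.77, 8.71, 6.82 and 6.16 CPM in Co, at 8.64, 8.91, 8.76, 9.11 and 6.98 CPM in FeEV, and at 4.17, 7.32, 2.76, 1.34 and 6.82 CPM in FoEV, from 4 to 29 counts per library. FoEV replicates 1, 3 and 4 were below every other library. In log2 units, FoEV differed from Co by −0.77 ± 0.30 (SE) (edgeR adjusted p = 0.23) and from FeEV by −0.88 ± 0.30 (edgeR adjusted p = 0.496). Without LSMEM1, 13 of 47 genes had an unadjusted p under 0.05 in FoEV vs Co (27.7%, beside 15.1% of all genes). Of these, 11 were higher (23.4%, beside 8.18% of all genes).

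**Figure D4:**
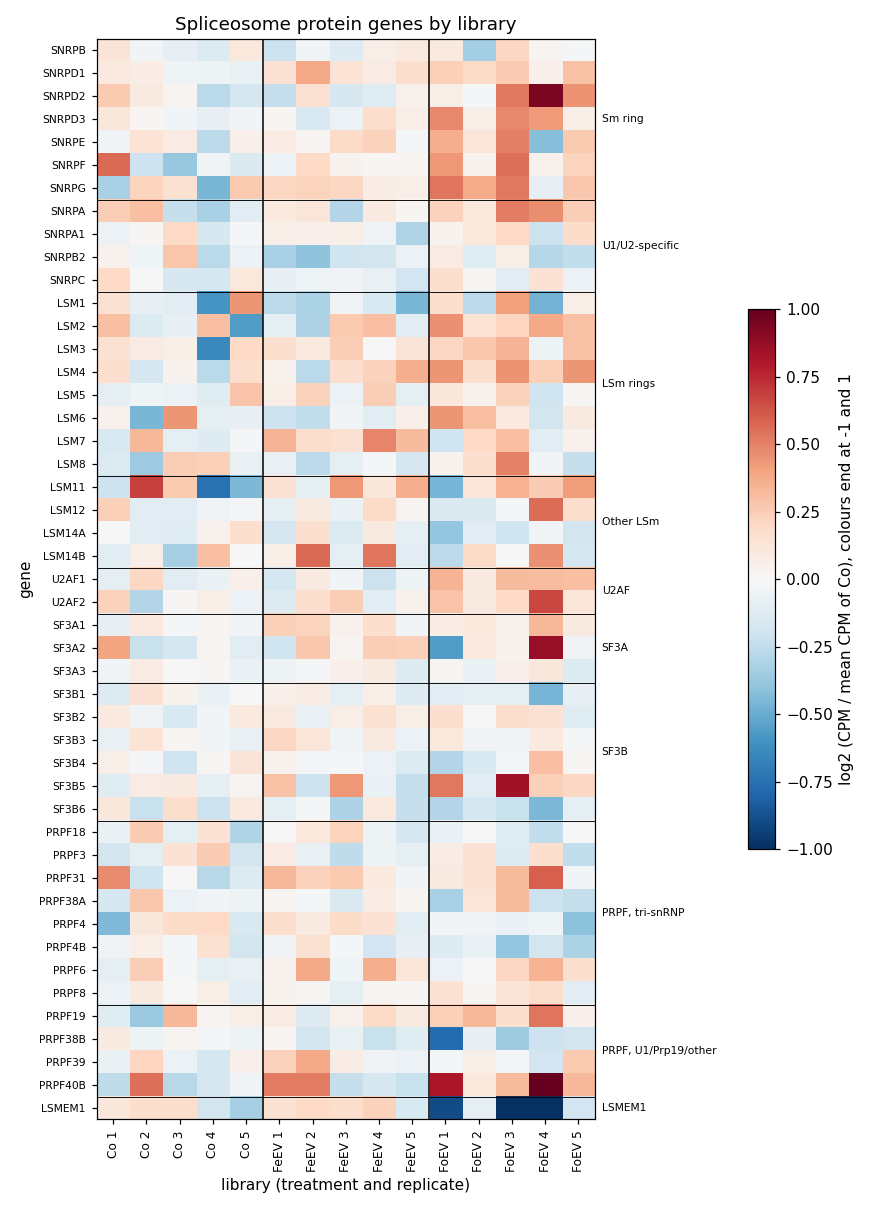
Level of 47 of the 48 genes (rows, grouped by role) in the 15 libraries (columns) as log2 of CPM over the mean CPM of Co, with colours ending at −1 and 1. Columns FoEV 1 and FoEV 3 are red over most rows of the Sm ring and the LSm rings, and LSMEM1 is dark blue in FoEV 1, FoEV 3 and FoEV 4. The 4 LSm genes outside the rings lie below their Co means in FoEV 1.

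Single libraries also shaped the pattern, as the map of the genes by library shows. FoEV replicate 4 was the highest FoEV library for 15 genes and the lowest for 14. It was the highest for SNRPD2, U2AF2, SF3A2 and PRPF40B and the lowest for SNRPE, SNRPG and SF3B1. Co replicate 4 was the lowest Co library for 16 of the 48 genes, and FeEV replicate 5 the lowest FeEV library for 19.

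With fresh oEVs, the 48 genes stayed close to Co. A higher mean was found for 29 genes and a lower one for 19, which is 60.4% higher beside 51.0% of all genes. The median log2 fold change was 0.03 for the 48 genes and 0.00 for all genes. No gene reached an adjusted p under 0.05 (edgeR quasi-likelihood test), as for all genes (0.0%), and 1 of the 48 genes had an unadjusted p under 0.05 in edgeR, in the robust likelihood ratio test and in DESeq2. That is 2.08% of the 48 genes, beside 4.15% of all genes in edgeR (1.83% higher and 2.32% lower). The share of all genes was 6.13% in the robust test and 3.79% in DESeq2. No gene of the 48 had FeEV libraries clear of the Co libraries, whereas 0.535% of all genes did so as higher and 0.415% as lower.

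The gene with the unadjusted p under 0.05 in FeEV was LSM7 (NCBI gene 509920) of the LSm rings. It was at 28.1, 39.1, 29.3, 28.5 and 30.8 CPM in Co, at 39.3, 35.3, 34.7, 43.7 and 38.8 CPM in FeEV, and at 27.1, 35.8, 38.3, 29.0 and 32.2 CPM in FoEV. All FeEV libraries were above 4 of the 5 Co libraries, and Co replicate 2 lay between the FeEV libraries. The log2 fold change was 0.29 ± 0.13 (SE) in FeEV vs Co (edgeR adjusted p = 1). Its unadjusted p was above 0.05 without any single one of Co replicates 1, 3, 4 and 5 and of FeEV replicates 1, 4 and 5. The count over the 48 genes was 0 without Co replicate 3, without Co replicate 5 and without FeEV replicate 1. It was 2 without Co replicate 1, without Co replicate 2 and without FoEV replicate 4. The share of all genes in these fits lay between 3.66% and 5.63%. SNRPD1, SF3A1 and PRPF6, at 0.18, 0.13 and 0.18, were next by p among the genes with a higher mean and did not reach an unadjusted p of 0.05.

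Between the oEV treatments, 30 of the 48 genes had a higher mean in FoEV and 18 a lower one. The share of higher genes was 62.5%, beside 51.8% of all genes, and the median log2 fold change was 0.05 beside 0.01. No gene reached an adjusted p under 0.05 (edgeR quasi-likelihood test, 0.0% of all genes). At an unadjusted p under 0.05 there were 5 genes, or 10.4% of the 48, beside 8.52% of all genes, and 5 in the robust likelihood ratio test and 6 in DESeq2. Of these 5 genes, 4 were higher in FoEV (8.33%, beside 4.83% of all genes) and 1 was lower (2.08%, beside 3.69%). The count was 10 without FoEV replicate 2 (beside 11.4% of all genes) and 8 without FoEV replicate 5 (beside 9.42%). No gene of the 48 had FoEV libraries all below FeEV, which 0.748% of all genes had.

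The higher genes were U2AF1, SNRPD3, SNRPD2 and SNRPA, and the lower gene was LSMEM1. SNRPD2 had a log2 fold change of 0.48 ± 0.17 (SE) (edgeR adjusted p = 0.496), SNRPD3 one of 0.30 ± 0.10 (edgeR adjusted p = 0.496) and SNRPA one of 0.30 ± 0.14 (edgeR adjusted p = 0.563). All 7 Sm genes and all 4 genes specific to U1 or U2 had a higher mean in FoEV than in FeEV, from 0.02 for SNRPD1 to 0.48 for SNRPD2. This comparison shares its FoEV libraries with FoEV vs Co, and the comparisons against Co share the Co libraries, so their counts are not independent.

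Other genes of the pathway are given from lists of their own. Of 16 genes for Sm ring assembly by the SMN complex, 8 had a higher and 8 a lower mean in FoEV than in Co. An unadjusted p under 0.05 was found for 2, both higher (12.5%, beside 15.1% of all genes in either direction and 8.18% higher). These were GEMIN8 and GEMIN4, subunits of the SMN complex, higher by 0.53 and 0.36 on the log2 scale (edgeR adjusted p = 0.14 and 0.26). Of 17 other snRNP proteins, 13 had a higher mean and 4 a lower one, and none had an unadjusted p under 0.05. Their median log2 fold change was 0.07. SNRNP70, the main RNA-binding protein of U1, was higher by 0.25 in FoEV than in Co and by 0.32 than in FeEV (edgeR adjusted p = 0.387 and 0.526). SNRNP25 was higher by 0.35 and SNRNP40 lower by 0.20 in FoEV than in Co. In FoEV vs FeEV, SNRNP70 and PDCD7, the latter at 0.41, had an unadjusted p under 0.05 (11.8%, beside 8.52% of all genes).

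Of 23 helicases and Prp19 complex members, 11 had a higher and 12 a lower mean in FoEV than in Co. An unadjusted p under 0.05 was found for 4, all lower (17.4%, beside 15.1% of all genes in either direction and 6.88% lower). They were the helicase DDX46 at −0.37, CDC5L and PLRG1 of the Prp19 complex at −0.28 and −0.25, and the splicing factor SLU7 at −0.24, with edgeR adjusted p-values from 0.105 to 0.316. In FeEV vs Co, CTNNBL1 was higher by 0.30 and CDC5L lower by 0.20, and no other gene of these 3 lists had an unadjusted p under 0.05. That is 8.70% of the 23 genes, beside 4.15% of all genes. In FoEV vs FeEV, that level was also reached by GEMIN8 at 0.43, CTNNBL1 at −0.27 and DDX46 at −0.21. This is 6.25% of the 16 assembly genes and 8.70% of the 23 genes, beside 8.52% of all genes.

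Several measures differed along with treatment. Of the 7 trophectoderm markers, 6 had a higher mean in FoEV than in Co. Of these 6, 4 (KRT18, GATA3, GATA2 and KRT8) had an unadjusted p under 0.05, beside 8.18% of all genes. Their edgeR adjusted p-values ran from 0.0818 to 0.289. The remaining marker, TFAP2A, differed by −0.49 on the log2 scale (edgeR adjusted p = 0.444). The sum of the 7 markers, mostly KRT8 and KRT18, was 6375–8628 CPM in Co, 6951–10421 CPM in FeEV and 8279–11201 CPM in FoEV. The 5 inner cell mass markers summed to 237–311 CPM in Co and 222–343 CPM in FoEV. Of the 3 that passed the filter, NANOG differed by −0.84 on the log2 scale in FoEV vs Co (edgeR adjusted p = 0.178), SOX2 by −0.03 and POU5F1 by 0.21. NANOG alone of the 3 had an unadjusted p under 0.05, beside 6.88% of all genes lower. In FeEV vs Co, NANOG was the only one of the tested markers with an unadjusted p under 0.05, at −0.62. FGF4 was at 0 in all FoEV libraries and at most at 0.41 CPM in Co, with a median of 0. The 5 hypoblast markers summed to 510–772 CPM in Co and 527–663 CPM in FoEV. Of the 4 that passed the filter, RSPO3 alone had an unadjusted p under 0.05 in FoEV vs Co, beside 6.88% of all genes lower. It differed by −0.76 on the log2 scale (edgeR adjusted p = 0.162). PDGFRA differed by −0.46, GATA6 by −0.03 and GATA4 by 0.32. The 971 genes annotated as snRNA summed to 508–1365 CPM in Co, 611–1101 CPM in FeEV and 923–2511 CPM in FoEV. In pools of whole embryos, a different mix of cell types and a different level per cell cannot be told apart. The part of these measures and of the greater depth of the FoEV libraries in the values of the spliceosome genes was not tested, except that with counts thinned to the smallest library 11 of the 48 genes had an unadjusted p under 0.05 in FoEV vs Co, 9 of them higher, beside 14.0% of all genes in either direction.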

How the data were processed

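Total RNA of 15 pools of bovine blastocysts was sequenced after rRNA depletion and strand selection. The authors deposited raw read counts per gene on ARS-UCD1.2, unfiltered for 34773 genes and filtered for 10832 genes. The labels list Trim Galore 0.4.3.1, HISAT2 2.1.0 and featureCounts 1.6.3, whereas the study's methods name QuasR for counting. Samples were grouped by their titles. Symbols were joined by gene identifier from a RefSeq table of another build (10709 of 10832 genes matched), and no coordinates or sequences were used.

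The filtered counts were scaled by TMM and fitted in 1 model over all libraries with edgeR 4.0.16 in R 4.3.3 (estimateDisp, glmQLFit with robust=TRUE, quasi-likelihood F test), with Benjamini-Hochberg adjustment over all genes. The fit was tested on simulated data. Log2 CPM used a prior count of 2. Alternatives were DESeq2 1.42.0, DESeq2 size factors, edgeR's robust dispersion with a likelihood ratio test, other filters, replicate blocks, fits of only the groups compared, omission of each library, a prior count of 0.5, protein-coding genes only and thinned counts. Figures were drawn with matplotlib 3.10.9 in Python 3.11.15. Totals per library ran from 2136713 to 4058887 counts.

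The genes described in detail by a set rule were the Sm genes and, for each comparison, the 5 members with the lowest p-values. The rule also took the 2 most and the 2 least variable members, and for every role the member that differed most between FoEV and Co. Values are also given for members outside the rule, among them SF3B1, SF3B6, PRPF8, LSM2 and LSM3. PRPF4B and PRPF19 were added after their values were seen. Of the members, 1 is counted but not reported here by its own values. The members and lists were chosen with earlier results of these data known.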

Additional observations from a re-analysis of the deposited data

Results flagged for a closer look

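In 15 of 144 tests of the 5 libraries of a treatment, the gap between the highest or lowest library and its nearest neighbour took more than 0.71 of the range (Dixon's test at 95%). Chance flags about 1 in 20 groups. No cause was tested. In Co, the library apart was replicate 4 for LSM3 at 37.7 CPM (nearest library 61.6), replicate 5 for LSM5 at 26.7 CPM (21.3), replicate 2 for LSM7 at 39.1 CPM (30.8), replicate 1 for LSM12 at 72.2 CPM (60.7), replicate 2 for PRPF40B at 17.2 CPM (11.5), replicate 2 for PRPF6 at 70.8 CPM (59.0) and replicate 1 for SNRPF at 33.5 CPM (22.1). In FeEV, it was replicate 3 for PRPF8 at 732 CPM (786), replicate 3 for SNRPA at 26.0 CPM (32.1), replicate 5 for SNRPC at 52.8 CPM (57.2) and replicate 5 for LSMEM1 at 6.98 CPM (8.64). In FoEV, it was replicate 5 for PRPF4 at 34.6 CPM (44.1), replicate 4 for SF3A1 at 172 CPM (147), replicate 4 for SF3B1 at 318 CPM (407) and replicate 2 for U2AF1 at 52.5 CPM (60.5).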

How the results depend on the processing

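The number of genes with an adjusted p under 0.05 was 0 of 48 in every comparison and setting run, and the smallest adjusted p of a gene described in detail was 0.0752 (SNRPD3, FoEV vs Co). The number with an unadjusted p under 0.05 ranged from 9 to 14 in FoEV vs Co when each library was left out in turn. It ranged from 0 to 2 in FeEV vs Co and from 5 to 10 in FoEV vs FeEV. In the same order, the share of all genes ran from 11.5% to 18.1%, from 2.90% to 5.63% and from 5.87% to 11.4%. With counts thinned to the smallest library, the number was 0 in FeEV vs Co, beside 4.08% of all genes. Like the restriction to protein-coding genes, that setting was chosen after seeing the data. The replicate numbers of the titles were not taken to pair the libraries, since not all pairs correlated above 0.1: residuals of libraries with the same number correlated from −0.29 to 0.35 between FoEV and Co (1 of 5 pairs over 0.1), from −0.21 to 0.42 between FeEV and Co (3 of 5) and from 0.013 to 0.44 between FoEV and FeEV (3 of 5). With the number as a replicate block there were 15, 1 and 8 genes (FoEV vs Co, FeEV vs Co, FoEV vs FeEV) at an unadjusted p under 0.05. The shares of all genes were 17.6%, 5.35% and 11.1%. With the library numbers of the descriptions as the block there were 11, 1 and 6, beside 14.6%, 5.12% and 6.28% of all genes. The library numbers do not all match the numbers of the titles. Pairs by library number were not correlated as a set, so the correlations do not check that pairing. Neither block changed a call of the 48 genes at an adjusted p. Fresh and frozen oEVs came from the same oviducts, and the labels do not tell which pools shared them. The main fit of FoEV vs FeEV holds no pairing. Reversed fold changes all concerned small differences in FoEV vs Co. The value of SNRPB log2 fold change, FoEV vs Co, was −0.000237 with DESeq2 size factors, −0.000341 in DESeq2, −0.022 with the block by library number and −0.055 to 0.083 without single libraries. SF3A3 took 0.026 with that block, 0.010 with thinned counts and −0.032 to 0.029 without single libraries. SF3B3 took −0.0073 with thinned counts. Without single libraries, LSM7 ranged from −0.016 to 0.16 and SF3A2 from −0.10 to 0.28. The cause was not tested. Of the fold changes under alternatives, 813 kept direction and side of an unadjusted p of 0.05, 58 lost it, 14 gained it and 15 reversed. The common biological coefficient of variation was 0.159, and the filtered totals used in the fit were at most 4011306 counts. No difference of the 48 genes passed the adjustment, and the part of spread and depth in this was not tested.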

Other observations

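Other genes that begin with the letters of the rule lay outside the filtered table. LSM10, a protein of the U7 snRNP, was counted 3 to 15 times in Co libraries, 3 to 11 times in FeEV and 6 to 17 times in FoEV. LSMEM2, a membrane protein, was counted 0 to 2 times per library.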
